A study of Homo sapiens with 12 samples.

Results

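The genes described here encode the largest subunit of RNA polymerase II, the kinases and cyclins that phosphorylate its tail, and 2 factors that hold these kinases or the polymerase back. They are POLR2A, CDK7, CDK9, CDK12, CDK13, CCNK, CCNT1, CCNT2, HEXIM1 and SUPT5H. The 10 genes were chosen by name and matched by Ensembl identifier in the deposited gene tables, which list 58051 genes. All 10 were among the 27915 genes with enough counts to be tested. The 12 RNA-seq libraries come from HCT116, an established line of human colon carcinoma cells. Cells received an siRNA, a short double-stranded RNA used to deplete a matching messenger RNA, against prefoldin subunit 2 (siPFDN2), against prefoldin subunit 5 (siPFDN5) or a control siRNA (siControl). In every group serum was withdrawn for 48 h, beginning 24 h after the siRNA. Cells were collected either at the end of that starvation (before serum) or 90 min after serum was given back (after serum), which makes 6 groups with 2 libraries each.

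RNA polymerase II carries on POLR2A a long tail of repeated residues, the C-terminal domain, whose phosphorylation accompanies each step of transcription. CDK7, within the general factor TFIIH, phosphorylates the tail at promoters and activates other cyclin-dependent kinases. After initiation the polymerase pauses under the factors DSIF, which contains SUPT5H, and NELF, until P-TEFb, made of CDK9 and cyclin T1 or T2 (CCNT1, CCNT2), phosphorylates them and the tail. HEXIM1 together with the noncoding RNA 7SK keeps part of P-TEFb inactive. CDK12 and CDK13, each with cyclin K (CCNK), act on the tail later in the gene. Serum given to starved cells induces immediate-early genes, many of which are controlled at the step of pause release.

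The siRNAs are the agents that define the groups, and their sense strands are given in the labels as follows, each 19 bases long.
siControl: cguacgcggaauacuucga
siPFDN2: cagccuagugaucgauaca
siPFDN5: agagaagacagcugaggau

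Each library held 59784425 to 136504590 gene-body counts, which include fragments in introns. Abundance is given in CPM, a gene's count scaled by the library total after TMM adjustment. PFDN2 stood at 7.55 and 8.49 CPM in siPFDN2 against 11.5 and 11.2 in siControl before serum, and at 8.73 and 9.47 against 19.5 and 16.3 after it. In siPFDN5 PFDN2 was above siControl, at 21.8 and 21.1 CPM before serum and 23.1 and 28.7 after it. Neither difference passed (adjusted p = 0.104 before and 0.108 after serum, by edgeR's quasi-likelihood test). PFDN5 stood at 41.0 and 44.2 CPM in siPFDN5 against 76.8 and 68.9 in siControl before serum. By the same edgeR test the lower target levels did not pass either. For PFDN2 in siPFDN2 the adjusted p was 0.442 before and 0.772 after serum, and for PFDN5 in siPFDN5 before serum 0.104. After serum the libraries labelled siPFDN5 held 67.5 and 68.6 CPM of PFDN5, and siControl 67.9 and 74.0, so the target was not lower there and directions drawn from those 2 libraries rest on the label. Replicate 2 of siPFDN2 before serum stood apart from the other libraries. Across 12052 genes its log2 difference from replicate 1 had an SD of 0.68, against 0.12 to 0.30 in the other groups, and followed GC content with a Spearman correlation of 0.84 across genes. Of 9 colon epithelial markers 6 had a median above 10 CPM, while LGALS4 and CEACAM5 were at or near 0, as were 3 of 3 leukocyte markers and 3 of 5 fibroblast markers. Summed over the list, the epithelial markers ran from 1856 to 1993 CPM in starved siControl and siPFDN5 cells, from 1940 to 2673 in starved siPFDN2 cells and from 2047 to 2890 after serum. The part of these levels in the results was not tested, nor can fewer cells and less RNA per cell be told apart in bulk RNA.

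**Figure D1:**
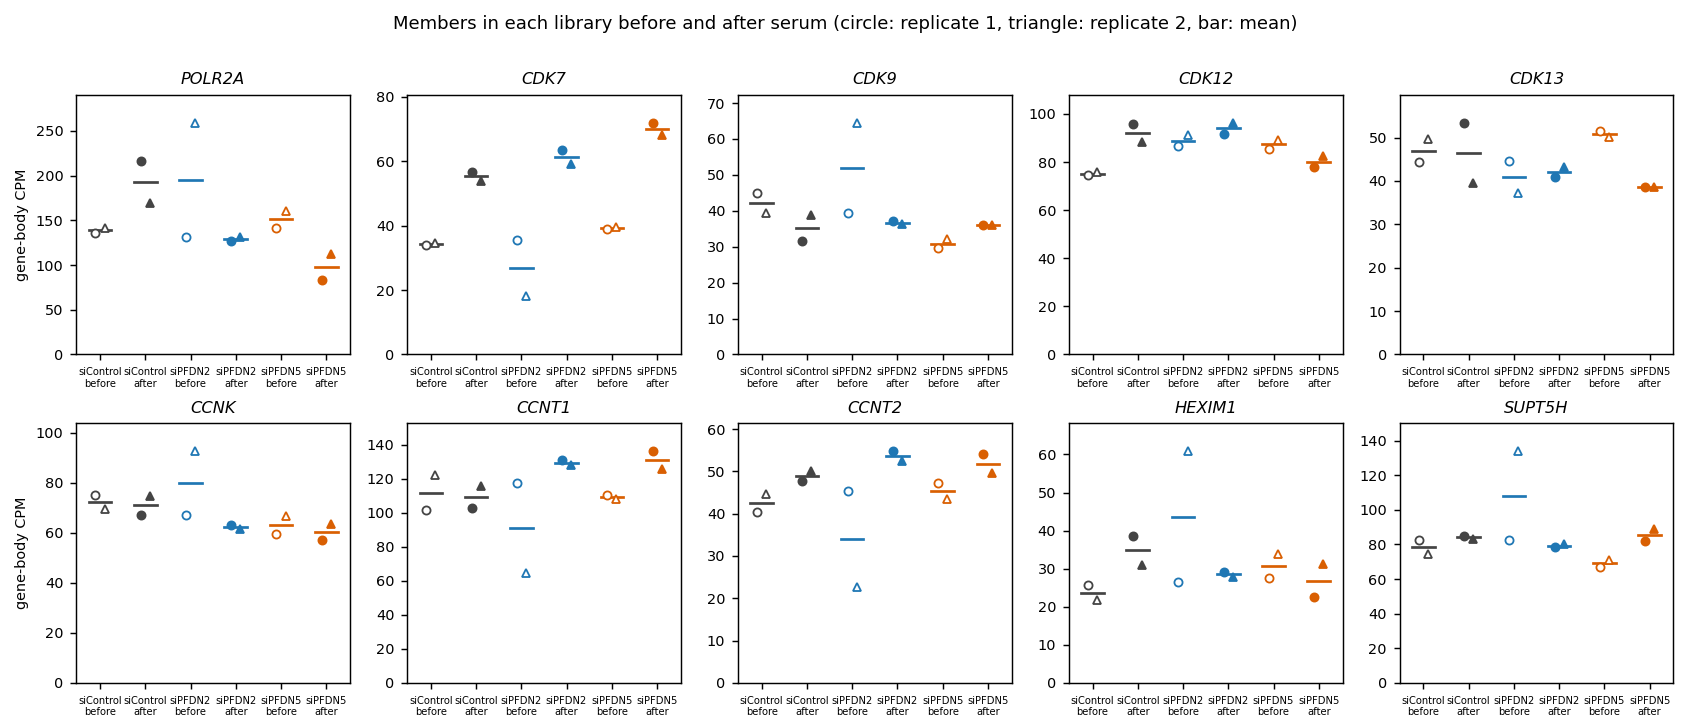
Gene-body CPM of the 10 genes in each of the 12 libraries (y axis from 0), with replicate 1 as a circle, replicate 2 as a triangle and the mean of the group as a bar. Open symbols are before and filled symbols 90 min after serum. CDK7 lies above its level before serum in all 3 siRNAs, and the open blue triangle, replicate 2 of siPFDN2 before serum, lies apart from its circle in most panels.

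Levels of different genes were compared as exon RPKM, exon CPM divided by the exon length in kilobases. The medians over the 12 libraries were 19.7 RPKM for POLR2A, 18.8 for CCNT1, 18.6 for CDK7 and 14.7 for CDK9. They were 11.3 for SUPT5H, 9.84 for HEXIM1 and 7.91 for CDK12, and the lowest were 5.40 for CCNT2, 4.85 for CCNK and 4.71 for CDK13. The 10 medians thus lay between 4.71 and 19.7 RPKM, and neighbours at the top were not separated. POLR2A was above CCNT1 in 7 of 12 libraries and CCNT1 above CDK7 in 5 of 12. CDK9 was above SUPT5H, HEXIM1 above CDK12 and CDK12 above CCNT2 in 12 of 12 libraries, whereas CCNT2 was above CCNK, and CCNK above CDK13, in 8 of 12. By these medians CDK7 and CDK9 were higher per length than CDK12 and CDK13 among the catalytic subunits, and cyclin T1 was higher than T2. In replicate 2 of siPFDN2 before serum, however, CDK7 lay at 7.11 RPKM, under CDK12 at 8.01. The exon length takes in all annotated exons, 12773 bases for CDK12 against 8336 for its leading transcript, CDK12-202, which lowers its RPKM.

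CDK7, the kinase of TFIIH, was the one member of the 10 that changed with serum by the test on the average of the siRNAs. In that comparison 14.9% of all genes tested passed the threshold (edgeR's quasi-likelihood test, Benjamini-Hochberg adjusted p under 0.05), and 7.6% passed it in the upward direction. CDK7 stood at 33.9 and 34.7 CPM in starved siControl cells and at 56.6 and 53.9 after it. In siPFDN2 its values were 35.6 and 18.3 CPM before serum and 63.3 and 59.3 after it. In siPFDN5 they were 39.1 and 39.7 CPM before and 71.9 and 68.0 after. Both libraries after serum lay above both before serum in 3 of 3 siRNAs, a pattern that 7.25% of all genes tested showed in the same direction. The log2 fold change averaged over the siRNAs was 0.90 (SE 0.14, 6 libraries against 6, adjusted p = 0.00155 by edgeR). Without replicate 2 of siPFDN2 before serum it was 0.77 (SE 0.05, adjusted p = 3.86e-08).

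Within single siRNAs the rise of CDK7 was less firm. In siControl the mean went from 34.3 ± 0.561 to 55.2 ± 1.95 CPM (SD, n = 2), a log2 fold change of 0.69 (SE 0.24) that did not pass in edgeR's fit (adjusted p = 0.215). The same change passed with a GC trend removed from each library (0.64, adjusted p = 0.00594, with 6.34% of genes called). It was 0.68 without replicate 2 of siPFDN2 before serum. CDK7 was called higher in siPFDN2 (1.19, SE 0.24, adjusted p = 0.0236 by edgeR) and in siPFDN5 (0.83, SE 0.24, adjusted p = 0.0464 by edgeR). The siPFDN2 value includes the library that stands apart, where CDK7 was lowest, and was 0.78 without it (adjusted p = 0.000154). The siPFDN2 call was lost in 4 of the 12 fits that left out 1 library (either siPFDN2 library after serum, replicate 2 of siControl before or replicate 1 after serum, adjusted p from 0.05005 to 0.162). The siPFDN5 call was lost when any of the 10 libraries outside siPFDN2 before serum was left out (adjusted p from 0.0592 to 0.240). The difference of the CDK7 response from siControl was 0.50 (SE 0.34, adjusted p = 0.582) in siPFDN2 and 0.14 (SE 0.34, adjusted p = 0.853) in siPFDN5 by edgeR's test, so a difference between siRNAs was not shown. On exon counts alone CDK7 rose on average by 0.79 (SE 0.16, adjusted p = 0.0128 by edgeR), where 11% of genes tested were called, a call lost without replicate 2 of siControl after serum. Exon counts did not give the calls within siPFDN2 (1.18, adjusted p = 0.0626, with 2.53% of genes called) and siPFDN5 (0.78, adjusted p = 0.139, with 4.22%).

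The promoter of CDK7 is shown because it is the member that rose. The gene is annotated in the deposited tables on the plus strand of chromosome 5 from 69234795 to 69277430 (GRCh38) and overlaps no other gene. The 250 bases before its annotated start, chr5:69234545-69234794 on the plus strand, are those of RefSeq (GRCh38.p14), with an E-box in capitals.
CDK7: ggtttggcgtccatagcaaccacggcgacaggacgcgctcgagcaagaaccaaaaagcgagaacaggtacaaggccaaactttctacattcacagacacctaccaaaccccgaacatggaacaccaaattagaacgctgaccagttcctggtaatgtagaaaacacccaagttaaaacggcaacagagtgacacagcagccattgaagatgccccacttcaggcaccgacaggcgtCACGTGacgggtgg
The E-box (CACGTG) begins 14 bases before the start. Windows of 250 bases before the start were searched on both strands in all 10 members and in 27305 genes of the table. The E-box was found in 2 members, CDK7 and CCNT1, and in 6.48% of all windows. The GC box (GGGCGG) was found in 8 members and in 42.3% of windows, and the ETS core (CCGGAAGT) in CCNT1 and CDK9 and in 3.65% of windows. No member held the CArG box (1.17% of windows), the AP-1 site (TGANTCA, 6.56%), the CRE (TGACGTCA, 1.75%) or the EGR1 site (GCGTGGGCG, 0.707%). The letters of the EGR1 site and the GC box can share bases. A match describes letters only, and the data hold no measure of binding.

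The partners of CDK7 did not all move with it. CCNH, the cyclin that activates CDK7, was at 33.0 and 32.3 CPM in starved siControl cells and at 36.3 and 38.3 after it. In siPFDN5 it went from 32.9 and 31.6 to 49.0 and 43.3 CPM, and in siPFDN2 from 35.6 and 18.2 to 46.2 and 44.1. CCNH was called higher on average (0.49, SE 0.14, adjusted p = 0.0406 by edgeR), but lay between 0.0656 and 0.110 in adjusted p when any 1 of the 10 libraries outside siPFDN2 before serum was left out. MNAT1, the assembly factor that joins CDK7 and CCNH, had a log2 fold change of 0.16 (SE 0.14, adjusted p = 0.427) and did not pass. Of the 9 other TFIIH genes listed, CCNH was the 1 that passed, and their median log2 fold change was 0.16 beside -0.03 over all genes tested.

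**Figure D2:**
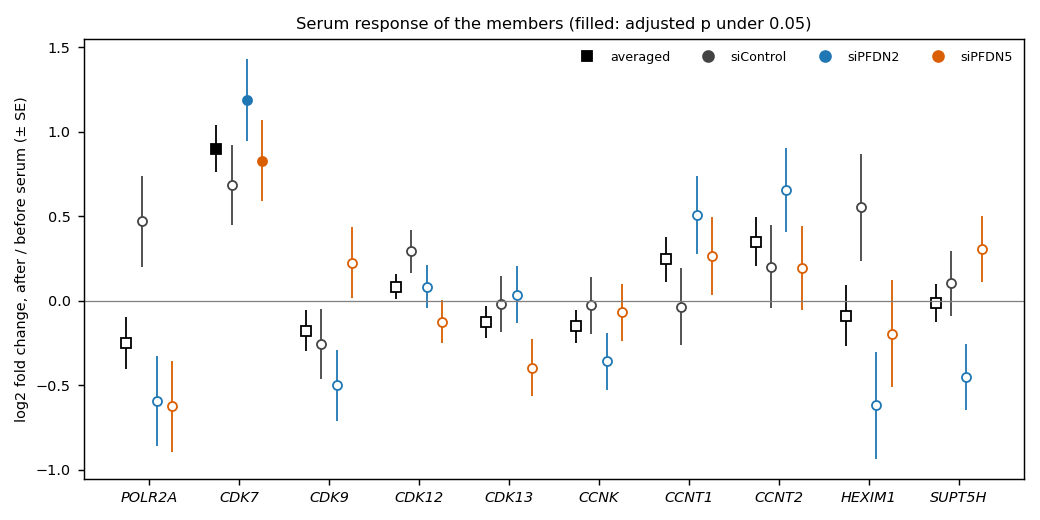
Log2 fold change of each gene after against before serum, with its SE, averaged over the siRNAs (squares) and within each siRNA (circles). Filled symbols passed an adjusted p under 0.05 in edgeR's quasi-likelihood test, which holds for CDK7 on average (0.90), in siPFDN2 (1.19) and in siPFDN5 (0.83) and for no other gene plotted.

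None of the 3 P-TEFb subunits passed in the averaged response. CCNT2, cyclin T2, was at 40.5 and 44.5 CPM in starved siControl cells and at 47.7 and 50.1 after it. In siPFDN2 it went from 45.4 and 22.7 to 54.7 and 52.4 CPM, and in siPFDN5 from 47.2 and 43.4 to 54.0 and 49.5. As for CDK7, both libraries after serum were above both before it in 3 of 3 siRNAs, which 7.25% of all genes tested showed. The averaged log2 fold change of 0.35 (SE 0.14) did not pass (adjusted p = 0.117 by edgeR). It passed with the GC trend removed (0.26, adjusted p = 0.00777), where 28.4% of genes were called, and without replicate 2 of siPFDN2 before serum (0.21, SE 0.05, adjusted p = 0.00806), where 27.5% were.

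CCNT1, cyclin T1, did not pass either (0.25, SE 0.13, adjusted p = 0.220 by edgeR). It was 0.12 (adjusted p = 0.141) without replicate 2 of siPFDN2 before serum and 0.42 (adjusted p = 5.90e-05) without replicate 1. Its siControl values overlapped, at 101.7 and 121.9 CPM before serum and 102.9 and 115.5 after it. In siPFDN2 it was at 117.5 and 64.3 CPM before and 131.1 and 127.7 after, and in siPFDN5 at 110.4 and 107.9 before and 136.0 and 125.9 after. CDK9, the kinase, lay lower after serum in 2 of 3 siRNAs. It was at 44.9 and 39.3 CPM in starved siControl cells and at 31.6 and 38.9 after, and in siPFDN2 at 39.3 and 64.5 before and 37.2 and 36.3 after. In siPFDN5 CDK9 had 29.7 and 32.1 CPM before serum, then 36.0 and 36.1 after it, above rather than below. Its averaged log2 fold change was -0.18 (SE 0.12, adjusted p = 0.329 by edgeR), and -0.04 (0.671) or -0.28 (0.00245) without replicate 2 or replicate 1 of siPFDN2 before serum.

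HEXIM1, the inhibitor of P-TEFb, is a single-exon gene and had the widest replicate gap of the members on the log2 scale, in siPFDN2 before serum. It was at 26.6 and 60.8 CPM in starved siPFDN2 cells, and at 29.1 and 27.9 after it. In siControl it was at 25.7 and 21.7 CPM before and 38.7 and 30.9 after, and in siPFDN5 at 27.5 and 34.0 before and 22.5 and 31.2 after. The log2 fold change of 0.55 (SE 0.32) in siControl did not pass (adjusted p = 0.554 by edgeR). The averaged value of -0.09 (SE 0.18, adjusted p = 0.768) turned to 0.15 (adjusted p = 0.365) without replicate 2 of siPFDN2 before serum.

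HEXIM2, a second protein inhibitor of P-TEFb, did change. It was at 7.06 and 7.47 CPM in starved siControl cells and 3.36 and 3.71 after it. In siPFDN2 it went from 6.70 and 10.2 to 3.66 and 3.64 CPM, and in siPFDN5 from 5.40 and 5.35 to 3.64 and 4.11. HEXIM2 fell in the averaged response by 0.91 on the log2 scale (SE 0.12, adjusted p = 0.000453 by edgeR) and passed in all 23 alternatives run. It overlaps 2 other annotated genes, and counting without strand cannot separate overlapping fragments. RN7SK, the 7SK RNA, was called higher on average (0.28, SE 0.08, adjusted p = 0.0459 by edgeR), although it stood at 10809 and 11099 CPM in starved siControl cells and at 10244 and 9884 after it. The higher values were those labelled siPFDN5 after serum, 18228 and 16790 CPM against 10949 and 10992 before. The call was lost in 16 of 22 alternatives, and the gene overlaps a second annotated 7SK gene.

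CDK12 and CDK13, with their shared cyclin CCNK, showed no call with serum in the fit of all libraries. CDK12 was at 74.8 and 75.7 CPM in starved siControl cells and at 95.8 and 88.4 after it. In siPFDN2 it was at 86.5 and 91.1 CPM before and 91.8 and 96.3 after, and in siPFDN5 at 85.6 and 89.0 before and 78.0 and 82.3 after. The siControl and siPFDN2 groups thus lay higher after serum without overlap, and the siPFDN5 group lower. Opposite changes without overlap in siControl and siPFDN5 were seen in 12.8% of all genes tested. In siControl CDK12 had a log2 fold change of 0.29 (SE 0.13, adjusted p = 0.362 by edgeR), which was also 0.29 without replicate 2 of siPFDN2 before serum. The averaged value was 0.08 (SE 0.07, adjusted p = 0.443), and -0.06 when libraries were scaled by their totals alone.

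CDK13 was at 44.3 and 49.7 CPM in starved siControl cells and at 53.4 and 39.5 after it, which overlap. In siPFDN5 it was at 51.6 and 50.03 CPM before and at 38.6 and 38.6 after. That log2 fold change of -0.40 (SE 0.17) did not pass in the fit of all libraries (adjusted p = 0.136 by edgeR). It was -0.39 without replicate 2 of siPFDN2 before serum. CCNK lay between 57.0 and 75.1 CPM in 11 libraries and at 92.7 in replicate 2 of siPFDN2 before serum. Its averaged log2 fold change was -0.15 (SE 0.10, adjusted p = 0.299). CCNK overlaps CCDC85C and AL110504.1, and CDK12, CCNT2 and HEXIM1 each overlap 1 other gene (RNU6-233P, CCNT2-AS1 and AC138150.1), whose fragments can enter their counts.

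POLR2A, which carries the tail that these kinases act on, lay on different sides of its starved level in the siRNAs. Starved siControl cells held 136.4 and 141.9 CPM of POLR2A, and 216.02 and 169.5 after serum. The siPFDN5 libraries held 141.9 and 160.0 CPM before serum against 83.3 and 112.6 afterwards. Both siControl libraries were thus higher after serum and both labelled siPFDN5 lower, without overlap. For siPFDN2 the values were 131.8 and 259.0 CPM before serum, then 127.2 and 131.8.

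No serum change of POLR2A passed in the fit of all libraries. In siControl the log2 fold change was 0.47 (SE 0.27, adjusted p = 0.551 by edgeR). For siPFDN2 it was -0.59, with an SE of 0.27 and an adjusted p of 0.178, and for siPFDN5 -0.62, with 0.27 and 0.144. The siPFDN2 value was -0.03 (adjusted p = 0.972) without replicate 2 before serum and -0.99 (adjusted p = 0.000781) without replicate 1. The siPFDN5 value was also -0.62 without replicate 2 of siPFDN2 before serum. The difference of the siPFDN5 response from the siControl response was -1.09 (SE 0.38, adjusted p = 0.138 by edgeR). That difference passed with the GC trend removed (-1.12, adjusted p = 0.0432, with 8.69% of genes called) and without replicate 2 of siPFDN2 before serum (-1.08, SE 0.21, adjusted p = 0.0106, with 21.8% called). Of the 11 other polymerase II subunits listed, 0 passed in the averaged response by edgeR (14.9% of all genes did), and 6 were called higher with the GC trend removed (28.4% of all genes were called, 54.2% of these higher).

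SUPT5H, the large subunit of DSIF, lay between 67.2 and 89.1 CPM in 11 libraries and at 133.8 in replicate 2 of siPFDN2 before serum. In siPFDN5 it had 67.2 and 71.0 CPM before serum, then 82.0 and 89.1 after it. The log2 fold change of 0.31 (SE 0.19) did not pass (adjusted p = 0.308 by edgeR), and was also 0.31 without replicate 2 of siPFDN2 before serum. Averaged over the siRNAs SUPT5H was at -0.01 (SE 0.11, adjusted p = 0.948), and the sign turned in 9 of 23 alternatives. SUPT4H1, the small subunit, did not pass on average (0.12, SE 0.08, adjusted p = 0.314).

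Counted by siRNA, 0 of 10 members were called in siControl (2.87% of all genes were called), 1 in siPFDN2 (3.26%) and 1 in siPFDN5 (12.2%), which was CDK7 each time. At an unadjusted p under 0.05 the counts were 2, 6 and 3 of 10, where 12.4%, 28% and 30.7% of all genes passed. DESeq2 called 0, 1 and 1, counts given here without the share of all genes. In the averaged response 2 of 10 had an unadjusted p under 0.05, beside 32.7% of genes. The members' median log2 fold change in the averaged response was -0.05, beside -0.03 over all genes. Without replicate 2 of siPFDN2 before serum 2 members were called in siControl (9.95% of genes), 1 in siPFDN2 (4%) and 5 in siPFDN5 (36.3%). The 5 in siPFDN5 were CDK7, CCNT1 and SUPT5H, higher, and POLR2A and CDK13, lower. Without the other library of that group, replicate 1, which leaves replicate 2 to stand for it, 6 members were called in the averaged response, beside 47.3% of genes: CDK7, CCNT1 and CCNT2 higher, and POLR2A, CDK9 and CCNK lower.

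**Figure D3:**
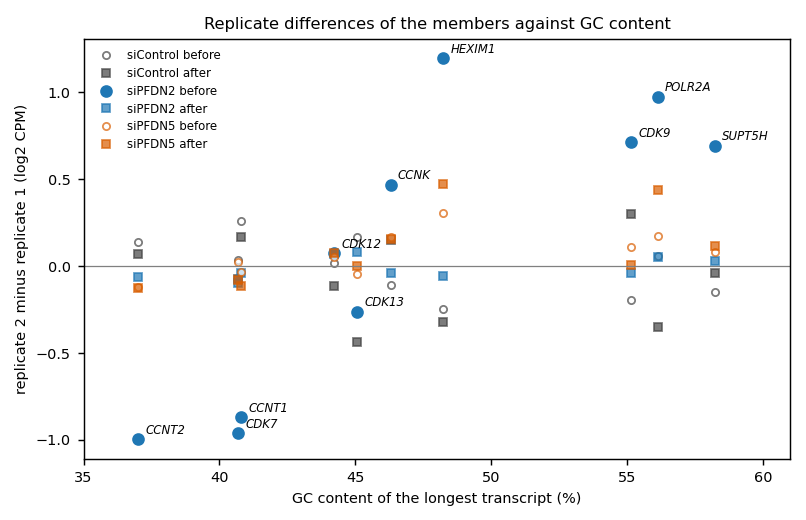
Difference of replicate 2 from replicate 1 in log2 CPM (y axis) for each of the 10 genes against the GC content of its longest transcript (x axis), in the 6 groups. In siPFDN2 before serum (large filled blue circles, labelled) the 3 genes under 41% GC lie between -0.998 and -0.869. The 3 genes above 55% lie between 0.695 and 0.974, and HEXIM1 at 48.2% lies highest, at 1.20. The other groups stay between -0.44 and 0.47.

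The gap between the siPFDN2 libraries before serum ran in opposite directions in the members of lowest and highest GC, but did not order all members. Replicate 2 was lower than replicate 1 by log2 differences of -0.998 for CCNT2, -0.96 for CDK7 and -0.87 for CCNT1, whose longest transcripts hold 37.0%, 40.7% and 40.8% GC. It was higher by 0.97 for POLR2A, 0.71 for CDK9 and 0.69 for SUPT5H, which hold 56.1%, 55.1% and 58.2%, and by 1.20 for HEXIM1 at 48.2%. CDK12 at 44.2% differed by 0.07, CDK13 at 45.1% by -0.26 and CCNK at 46.3% by 0.47. The largest gap, that of HEXIM1, was thus at a middling GC content. The members with the lowest GC are also those with the highest averaged serum values. With the GC trend removed the averaged values were 0.83 for CDK7 (adjusted p = 4.32e-06), 0.26 for CCNT2 (0.00777) and 0.18 for CCNT1 (0.0847).

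In the knockdown comparisons no member was called in edgeR's fit of all libraries. Of all genes 0% were called in siPFDN2 against siControl before serum, 0.00716% in siPFDN5 against siControl before serum, 0% in siPFDN2 against siControl after serum and 0.00358% in siPFDN5 against siControl after serum. At an unadjusted p under 0.05 the members' counts were 2, 0, 0 and 1 of 10, where 11.3%, 12.3%, 6.26% and 21.6% of all genes passed. DESeq2 called 0, 0, 0 and 1, also given without the share of all genes. These comparisons share the siControl libraries at each time.

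In the comparisons with siControl the member nearest a call was POLR2A after serum. It stood at 216.02 and 169.5 CPM in siControl, at 127.2 and 131.8 in siPFDN2 and at 83.3 and 112.6 in the libraries labelled siPFDN5. The log2 difference of siPFDN5 from siControl was -0.98 (SE 0.27, adjusted p = 0.0932 by edgeR). It passed with DESeq2 (-0.96, adjusted p = 0.0150), with the GC trend removed (-0.95, adjusted p = 0.0143, with 13.5% of genes called), and without replicate 2 of siPFDN2 before serum (-0.97, adjusted p = 0.00212), where 23.9% of genes were called. The difference of siPFDN2 from siControl was -0.57 (SE 0.27, adjusted p = 0.772) and passed in 0 of 24 alternatives. Without replicate 2 of siPFDN2 before serum CDK7 was also called higher in the libraries labelled siPFDN5 than in siControl after serum (0.35, SE 0.07, adjusted p = 0.00561), against 0.34 (SE 0.24, adjusted p = 0.431) with all libraries.

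Before serum CDK9 stood at 29.7 and 32.1 CPM in siPFDN5, below 44.9 and 39.3 in siControl and 39.3 and 64.5 in siPFDN2. The log2 difference from siControl was -0.45 (SE 0.21, adjusted p = 0.422 by edgeR) and passed without replicate 2 of siPFDN2 before serum (-0.45, SE 0.10, adjusted p = 0.0219), where 6.96% of genes were called. SUPT5H stood at 67.2 and 71.0 CPM in siPFDN5, 82.3 and 74.2 in siControl and 82.7 and 133.8 in siPFDN2. Between siPFDN5 and siPFDN2 before serum 0 members passed in edgeR's fit (0.0788% of genes, with 3 members at an unadjusted p under 0.05, beside 29% of genes). The values were -0.75 for CDK9 (SE 0.21, adjusted p = 0.0701) and -0.65 for SUPT5H (SE 0.20, adjusted p = 0.0771), both of which DESeq2 called (adjusted p = 0.0141 and 0.0222, with 16.8% of genes called). Without replicate 2 of siPFDN2 they were -0.35 (adjusted p = 0.120) and -0.26 (0.135), and without replicate 1 they were -1.06 (8.30e-06) and -0.95 (3.37e-06). After serum 0 members passed between siPFDN5 and siPFDN2 (0.0179% of genes, 0 members at an unadjusted p under 0.05, beside 7.92% of genes, and 0 with DESeq2). For the differences of the serum response from siControl 0 members passed in either knockdown (0% of genes in both), with 2 members at an unadjusted p under 0.05 in each, beside 6.6% of genes in siPFDN2 and 20.9% in siPFDN5, and 0 with DESeq2.

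Around the members, 63 genes of 9 related lists were examined in the averaged serum response. Of these 4 were called higher and 2 lower, 6 in all, beside 14.9% of all genes, and their median log2 fold change was 0.07. ELL2, an elongation factor of the super elongation complex that carries P-TEFb, changed most. It stood at 25.1 and 27.3 CPM in starved siControl cells and at 150.0 and 103.6 after it, and passed in all 23 alternatives (2.25, SE 0.14, adjusted p = 1.66e-06 by edgeR). It was the 1 of 9 genes of that complex that passed. PAF1, of the elongation complex of that name, was called higher (0.39, SE 0.09, adjusted p = 0.0134) as 1 of 6, a call lost in 5 of 23 alternatives (highest adjusted p 0.101), at 26.8 and 24.8 CPM in starved siControl cells and 35.7 and 33.3 after.

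MED12, of the Mediator kinase module that also bears CDK8, was called lower (-0.42, SE 0.13, adjusted p = 0.0450 by edgeR) as 1 of 6. Its siControl values overlapped, at 25.6 and 26.0 CPM before serum and 31.6 and 24.1 after, and the call was lost in 12 of 23 alternatives. Of 5 DSIF and NELF genes, 6 other elongation factors and 6 phosphatases of the tail, 0 were called. ELL2 and HEXIM2, both tied to P-TEFb, therefore moved in opposite directions, upward and downward, while CDK9 itself was not called. With the GC trend removed 24 of the 63 were called (16 higher, 8 lower), beside 28.4% of all genes, and 27 without replicate 2 of siPFDN2 before serum (18 higher, 9 lower), beside 27.5%.

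**Figure D4:**
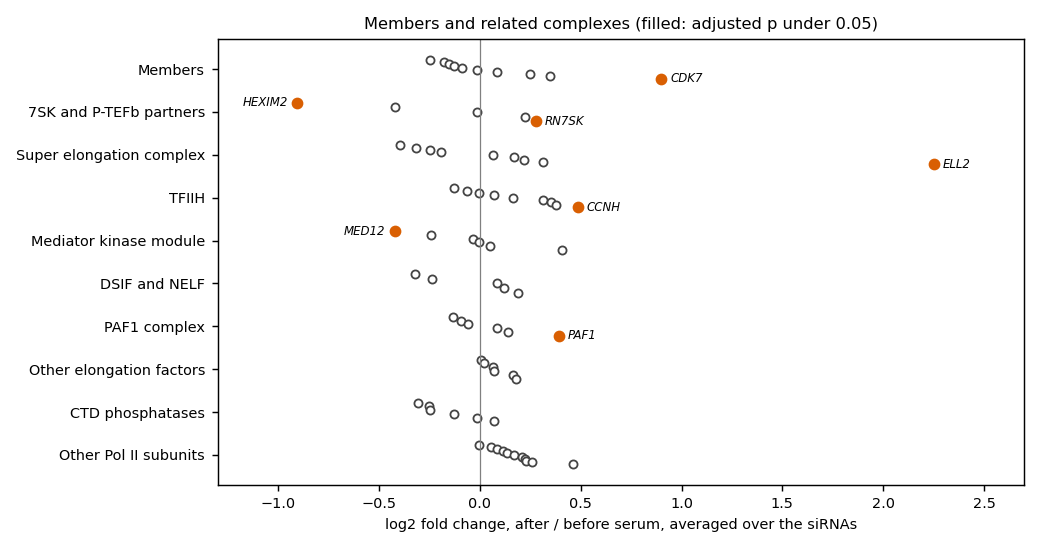
Log2 fold change after against before serum, averaged over the siRNAs (x axis), of the 10 members and of 63 genes in 9 related lists (rows). Filled points passed an adjusted p under 0.05 in edgeR's test, from HEXIM2 (-0.91) to ELL2 (2.25).

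The share of a gene's fragments that fall outside exons was taken as the intronic share. It could be compared in 6 of the 10 members. HEXIM1 has no intron, and CDK12, CCNK and CCNT2 overlap other genes, which can supply such fragments, so these 4 were not fitted. The shares had medians over the libraries of 20.8% for CDK13, 12.2% for CDK7, 3.19% for POLR2A, 2.42% for CCNT1, 2.26% for SUPT5H and 2.13% for CDK9. CDK7 and CDK13 had the largest shares of these 6 members and also varied most among them. CDK7 had 10.98% and 11.003% in starved siControl cells and 37.5% and 17.5% after serum. In siPFDN2 its share was 10.999% and 24.8% before and 16.6% and 14.9% after, and in siPFDN5 13.4% and 10.9% before and 6.93% and 7.38% after. CDK13 had 37.2% and 20.8% in siControl after serum and 13.9% and 13.6% in those labelled siPFDN5.

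Replicate 1 of siControl after serum thus held the highest intronic share of both kinases. Its 95% Wilson interval was 36.1% to 38.9% for CDK7 and 35.8% to 38.7% for CDK13, which cover counting error only, against 16.7% to 18.4% and 19.7% to 21.9% in replicate 2. Across 3501 genes without overlap the median share was 8.68% in that library, 3.77% and 3.80% in the libraries labelled siPFDN5 after serum, and between 5.03% and 7.88% in the other 9. The part of these library-wide levels in the members' shares was not tested beyond the GC-corrected fit, which also takes out each library's overall intronic level.

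In the averaged serum response 1 of 6 members changed in intronic against exonic counts, beside 37% of the 4390 genes tested. It was CCNT1, with a log2 change of -0.74 (SE 0.22, adjusted p = 0.00971 by edgeR). The call was lost without replicate 2 of siPFDN2 before serum (-0.51, adjusted p = 0.0509), which held the highest CCNT1 share, 6.27%, and with the GC trend removed (-0.32, adjusted p = 0.112). In siControl CDK7 was called higher (1.53, SE 0.42, adjusted p = 0.0398, with 3.64% of genes called). Without replicate 1 of siControl after serum that value was 0.78 (adjusted p = 0.266), and the call was lost in 8 of the 12 fits that left out 1 library. In siPFDN2 0 of 6 were called by edgeR, beside 4.58% of genes.

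In siPFDN5 3 of 6 were called lower, beside 53.3% of genes. They were CDK13 (-1.303, SE 0.35, adjusted p = 0.00391), CCNT1 (-1.29, SE 0.38, adjusted p = 0.00738) and SUPT5H (-0.89, SE 0.33, adjusted p = 0.0270), and none passed with the GC trend removed (-0.25, -0.13 and -0.10). When 1 library was left out their adjusted p reached 0.0563, 0.0990 and 0.206. After serum 3 of 6 were lower in the libraries labelled siPFDN5 than in siControl, beside 49.7% of genes. CDK7 differed by -2.21 (SE 0.42, adjusted p = 0.00272) and passed in all 14 alternatives, with values from -2.96 to -1.18. It was -1.18 with the GC trend removed (adjusted p = 0.0240) and -1.46 without replicate 1 of siControl after serum (adjusted p = 0.0274). CDK13 (-1.31, adjusted p = 0.00644) and CCNT1 (-1.23, adjusted p = 0.0116) lost their calls with the GC trend removed (-0.33 and -0.20) and without replicate 1 of siControl after serum (-0.72, adjusted p = 0.0918, and -0.97, adjusted p = 0.0837). CDK13 also lost it without replicate 1 of siPFDN5 after serum (adjusted p = 0.0510) and CCNT1 without replicate 2 (adjusted p = 0.127). The intronic serum response of siPFDN5 differed from that of siControl in 4 of 6 members, beside 39.1% of genes, by -2.37 for CDK7 (adjusted p = 0.00567), -2.06 for CDK13 (0.00492), -1.34 for CCNT1 (0.0471) and -1.26 for SUPT5H (0.0335). With the GC trend removed none of the 4 passed (-0.96, -0.77, 0.07 and -0.48). Without replicate 1 of siControl after serum CDK7 (-1.63, adjusted p = 0.0176) and CDK13 (-1.47, 0.0107) passed and CCNT1 (0.104) and SUPT5H (0.0706) did not.

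**Figure D5:**
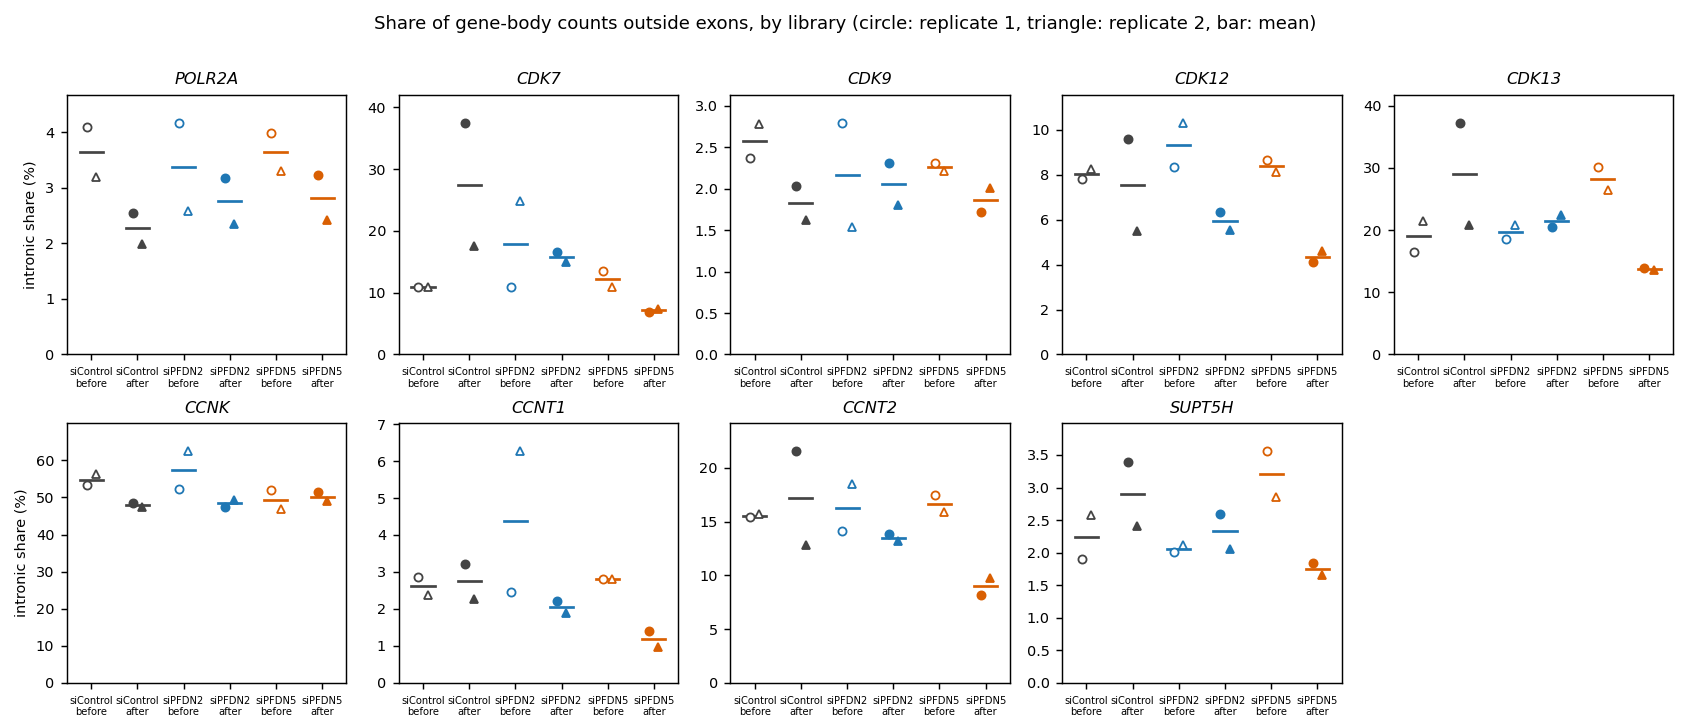
Intronic share, the percent of gene-body counts outside exons (y axis from 0), of 9 genes in each library, with circles for replicate 1, triangles for replicate 2 and bars for group means. CDK7 and CDK13 are highest in replicate 1 of siControl after serum, at 37.5% and 37.2%. The gene-body counts of CDK12, CCNK and CCNT2 can include fragments of overlapping genes.

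Taken per library, no intronic share passed in exact two-sided permutation tests that exchanged the serum labels within each siRNA (smallest possible p = 0.00926). After adjustment over 9 members, a member alone at that smallest p could not have passed. The mean share of POLR2A was 3.55% before and 2.62% after serum (exact p = 0.0278, adjusted over 9 members 0.125). That of CDK12 was 8.58% before and 5.94% after (exact p = 0.0278, adjusted 0.125). CDK7 went from 13.7% to 16.8% (exact p = 0.620, adjusted 0.771), and the sign of this difference turned when 1 library was left out (-0.21 to 6.44 percentage points).

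Transcript estimates were used to see which isoform carried the fragments of each gene. They are estimated counts, not divided by transcript length, so the shares give more weight to longer transcripts and are not shares of molecules. One transcript held a median of 92.1% of the estimates for CDK9 (CDK9-201), 90.5% for CCNT1 (CCNT1-201) and 82.6% for POLR2A (POLR2A-209, annotated as a processed transcript without a coding sequence). CDK12 was divided among CDK12-202 (35.5%, 8336 bases long), CDK12-209 (35.1%, 4165 bases) and CDK12-201 (27.4%, 5918 bases). CDK13-201, 10135 bases long, held 46.5%. CCNT2 was divided among CCNT2-202 (58.7%), CCNT2-201 (22.1%) and CCNT2-204 (14.1%). CDK7-201 ranged from 0.289% in replicate 2 of siPFDN2 before serum to 88.5% in replicate 1 of that group, so its isoform estimate was not stable between replicates.

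The main transcript of CCNT2, CCNT2-202, held 48.4% to 58.8% before serum and 58.6% to 63.7% after it. The mean was 54.3% before and 61.8% after serum, at the smallest p these permutations can give (exact permutation p = 0.00926). After adjustment over 9 members it was 0.0833, which a member alone at that smallest p cannot go below. The test thus could not call CCNT2-202 on its own, and no conclusion is drawn from its not passing. None of the other 8 had an unadjusted exact p under 0.12.

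The genes most like CDK7 over the 12 libraries, among 10472 protein-coding genes with a mean log2 CPM of at least 3, were PFKFB2, SIRT1 and YOD1, with Pearson correlations of log2 CPM of 0.993, 0.992 and 0.991. For CCNT2 they were ABHD3, UBE2V2 and OLA1 (0.991, 0.990 and 0.989). Without replicate 2 of siPFDN2 before serum these were 0.987, 0.985 and 0.984 for CDK7 and 0.946, 0.939 and 0.923 for CCNT2. All points share libraries and their composition trend, and the values describe likeness only.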

How the data were processed

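The authors deposited featureCounts counts per gene over gene bodies and over exons (fragments with both ends mapped, fragments over several genes counted for each, no strand option, Ensembl 87, per the file headers), and estimated counts per transcript. HISAT2, featureCounts 1.5.2 and kallisto 0.43 are named in the submitters' processing notes. RNA was depleted of 18S rRNA and primed with random hexamers, per the labels' protocols. A further 6 columns match no sample and were not used.

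Gene-body counts were fitted in edgeR 4.0.16 (R 4.3.3): filterByExpr, TMM, 1 quasi-likelihood model of the 6 groups, 12 contrasts, Benjamini-Hochberg over 27915 genes, two-sided. CPM uses TMM-scaled totals. SE derives from the fold change and test statistic. Intronic counts are gene-body minus exon counts, tested as an intron-by-group term with the library as a block, among genes that overlap no other. Alternatives were other scalings, DESeq2 1.42.0, filters, exon counts, transcript sums (rounded), a GC trend removed (lowess, GENCODE 29), a replicate block, and leaving out each library. Scripts were tested on simulated data. The members and lists were chosen with earlier results of these data known. Named beyond the members are the list genes called in the averaged response, complex partners, the targets and the 3 genes most like each of the 2 members with the largest averaged change. Replicates carry numbers only, and nothing says they were separate cultures, so p-values measure the spread between these libraries, which may be technical.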

Additional observations from a re-analysis of the deposited data

Results flagged for a closer look

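In 4 cases a member's serum change ran without overlap in opposite directions in siControl and in a knockdown, 3 of 10 members for siPFDN5, beside 12.8% of all genes, and 1 of 10 for siPFDN2, beside 4.14%. For POLR2A (siControl higher, siPFDN5 lower after serum) the difference of the responses was -1.09 on the log2 scale (SE 0.38, adjusted p = 0.138 by edgeR). For CDK12, with the same directions, it was -0.41 (SE 0.18, adjusted p = 0.213). For CDK9 (siControl lower, siPFDN5 higher) it was 0.48 (SE 0.30, adjusted p = 0.390). For SUPT5H (siControl higher, siPFDN2 lower) it was -0.55 (SE 0.28, adjusted p = 0.582). None of the 4 passed in the fit of all libraries. Without replicate 2 of siPFDN2 before serum those of POLR2A (-1.08, adjusted p = 0.0106), CDK12 (-0.40, adjusted p = 0.0203) and CDK9 (0.49, adjusted p = 0.0309) passed, where 21.8% of all genes did. The SUPT5H value was then -0.16 (adjusted p = 0.981), and -0.84 (adjusted p = 0.000124) without replicate 1 of that group.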

How the results depend on the processing

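CDK7 was called in the averaged serum response in 22 of 23 alternatives (0.76 to 1.09), the exception being sums of transcript estimates (0.80, adjusted p = 0.168). Counts of members called moved as follows, in the order averaged response, siControl, siPFDN2 and siPFDN5. They were 1, 0, 1 and 1 with all libraries, 2, 1, 5 and 2 with no filter, 2, 1, 1 and 5 with the GC trend removed, 4, 2, 1 and 6 with that and without replicate 2 of siPFDN2 before serum (an alternative chosen after seeing the data), and 0, 0, 0 and 0 with sums of transcript estimates. The shares of all genes called in the same order were 13.9%, 3.36%, 10.9% and 11% with no filter, 28.4%, 6.34%, 6.72% and 29.3% with the GC trend removed, 27.5%, 10.3%, 3.99% and 38% with the added alternative, and 9.37%, 1.95%, 2.37% and 4.35% with transcript sums. Fitting only the libraries compared gave 1, 0 and 7 within the siRNAs (4.03%, 0.143% and 54.5% of all genes) and no separate value for the average, which uses every library. In siPFDN5 the count was 0 with upper-quartile scaling, library totals, a minimum of 10 counts or exon counts, and in siPFDN2 it was 0 with exon counts. Leaving out 1 library gave ranges of 1 to 6, 0 to 2, 0 to 8 and 0 to 5 (6.85% to 47.3%, 0.93% to 9.95%, 0.818% to 48.6% and 0.857% to 36.3% of all genes), and on exon counts 0 to 6 around 1, with 3 when the GC trend was removed. The averaged exon count of 1 with all libraries stood beside 11% of genes called. In intronic share the averaged count of 1 (37% of genes) ranged from 1 to 2.

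For the knockdowns, where the count was 0 each time, no filter gave 1 in siPFDN2 against siControl before serum, 1 in siPFDN5 against siControl after serum, 3 in siPFDN5 against siPFDN2 before serum, and 2 (siPFDN2) and 1 (siPFDN5) in the differences of response (2.23%, 5.42%, 11.5%, 1.37% and 4.98% of all genes). Fitting only the libraries compared gave 2 in siPFDN5 against siControl before serum, 1 after it, 2 in siPFDN5 against siPFDN2 after serum and 2 in the siPFDN5 difference (19.5%, 7.81%, 22.7% and 14.9% of all genes). The GC trend removed gave 1 in siPFDN5 against siControl after serum (13.5% of all genes) and 1 in the siPFDN5 difference (8.69%). It also gave 1 in siPFDN5 against siPFDN2 before serum, with no share given here. DESeq2 gave 1 and 2 in siPFDN5 against siControl after serum and against siPFDN2 before serum. Leaving out 1 library gave 0 to 9 in siPFDN2 against siControl before serum, 0 to 1 and 0 to 2 in siPFDN5 against siControl before and after serum, 0 to 9 against siPFDN2 before serum, and 0 to 8 and 0 to 3 in the differences. The highest shares of all genes in these fits were 41.8%, 6.96%, 23.9%, 47.9%, 37.7% and 21.8%.

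Directions turned for averaged values that were not called: CDK12 with library totals (-0.0573), CCNK with transcript sums (0.0510), HEXIM1 without replicate 2 of siPFDN2 before serum (0.15, and 0.15 with the GC trend removed; leave-one-out range -0.24 to 0.15), and SUPT5H with transcript sums (0.000521), the GC trend removed (0.13), that with the replicate block (0.13) and that without replicate 2 (0.15; leave-one-out range -0.11 to 0.12). In siPFDN2 POLR2A turned to 0.0289 with the GC trend removed and without replicate 2. The averaged intronic share of CDK7 ranged from -0.0585 to 0.44, and the siPFDN5 difference in that of CCNT1 turned to 0.0714 with the GC trend removed. The cause was not tested.

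Replicate numbers did not pair the samples: over 15 pairs of groups the correlations of same-numbered deviations ran from -0.322 to 0.592, with 4 over 0.1. The replicate block left the averaged count at 1. With the GC trend also removed it gave 2, 1 and 3 in the averaged, siControl and siPFDN5 responses, and 1 in siPFDN5 against siControl after serum. Shares of all genes under the block are not given here. The GC trend removed without the block called 28.4% of genes in the averaged response, 6.34% in siControl and 13.5% in siPFDN5 against siControl after serum. Over all genes 4163 were called on average over the siRNAs, and 7925 once the GC trend was taken out. Of those called 51.0% were higher, against 40.0% with upper-quartile scaling and 22.6% with library totals, which shifted the median of all genes by -0.14.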
